A study of Homo sapiens with 2 samples.

Results

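The gp130 cytokine family was examined in a human corneal epithelial cell line grown in 2 media, through 10 genes taken by symbol from the 26506 genes in the tables. The genes were 4 ligands (IL11, IL6, LIF and CLCF1), 2 receptors that bind a single ligand (IL6R and IL11RA), 3 receptors that carry the signal into the cell (IL6ST, OSMR and LIFR) and the feedback inhibitor SOCS3. All 10 were found, and all 10 passed a filter of 1 CPM (counts scaled to library size) in at least 1 medium. The family was chosen by the count ratios of special medium over KSFM in these same libraries, in which IL11 stood out, so those ratios are a description and support nothing by themselves.

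Poly(A) RNA was sequenced from the established line ATCC CRL-11515 after 72 hours of culture. The special medium was DMEM/F12 with 10% fetal bovine serum, 1 mM calcium chloride, EGF (epidermal growth factor, at 10 ng/mL) and antimicrobials. The other medium was keratinocyte serum-free medium (KSFM), whose supplements are not given in the labels. The media therefore differ in base and serum, and may differ in calcium and growth factor, and the part of each cannot be told apart. RNA of 3 cultures of the 1 line was pooled into 1 library per medium, so there is no replicate spread, no p-value and no test between media.

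The special medium library held 16900472 counts and the KSFM library 21604652. Of 6 corneal epithelial markers 3 reached the filter of 1 CPM in either library. The keratins that define corneal epithelium were absent or nearly so, with KRT12 at 0 counts in both libraries and KRT3 at 1 count in special medium and 0 in KSFM, and ALDH3A1 had 14 counts in special medium and 5 in KSFM. PAX6, the eye field factor, had 73 counts in special medium and 69 in KSFM, CLU had 381 in special medium and 438 in KSFM, and KRT15 had 160 in special medium and 60 in KSFM, 3.401-fold higher after scaling (2.51 to 4.66). TPM is the length-adjusted transcript level in the deposited tables. Of 5 general epithelial markers 3 reached the filter, EPCAM (449 TPM in special medium and 301 TPM in KSFM), CDH1 (176 TPM in special medium and 197 TPM in KSFM) and KRT5 (51.1 TPM in special medium and 68.7 TPM in KSFM). The basal cell genes KRT14, with 10 counts in special medium and 4 in KSFM, and TP63, with 13 in special medium and 5 in KSFM, did not. Of 9 stromal fibroblast markers 1 reached the filter, with a summed level of 3.27 TPM in special medium and 2.64 TPM in KSFM, and 5 of the 9 had 0 counts in special medium and 4 in KSFM. Of 6 immune markers 2 did, CD68 and CSF1R, for a summed level of 72.4 TPM in special medium and 61.5 TPM in KSFM, nearly all of it CD68, while the leukocyte marker PTPRC had 0 counts in special medium and 1 in KSFM. Of 5 endothelial markers 1 did, CDH5, at 236 counts in special medium and 3 in KSFM, with PECAM1 at 15 in special medium and 2 in KSFM and a summed level of 7.74 TPM in special medium and 0.30 TPM in KSFM. The part of other cells in the values that follow was not tested beyond these levels. In bulk RNA, fewer cells of a kind and less RNA per cell cannot be told apart.

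Cytokines of this family share the receptor chain gp130, encoded by IL6ST. IL-6 and IL-11 first bind their own receptor, IL6R or IL11RA, and then engage gp130 alone, whereas LIF and CLCF1 signal through gp130 paired with LIFR, and oncostatin M through gp130 paired with OSMR or LIFR. The receptors activate JAK kinases and the transcription factor STAT3, which induces SOCS3, and the SOCS3 protein binds gp130 and shuts the signal down. IL-6 is made by corneal epithelium and is known for promoting epithelial migration in wound closure.

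The ligands IL6 and IL11 stood at opposite ends of the family, and the sequence before their transcription starts is printed for that reason. Both stretches come from RefSeq promoter windows on GRCh38.p14, written in the direction of transcription and limited to bases outside the annotated exons of the gene. The IL11 stretch is chr19:55370464-55370713 on the minus strand and runs from 250 to 1 bases upstream of the start. The IL6 stretch is chr7:22726950-22727146 on the plus strand and runs from 250 to 54 bases upstream. Capitals mark matches to the motifs searched, AP-1 (TGANTCA) in IL11, and C/EBP (TTGCNNAA) and NF-kB (GGANTTTCC) in IL6.
IL11: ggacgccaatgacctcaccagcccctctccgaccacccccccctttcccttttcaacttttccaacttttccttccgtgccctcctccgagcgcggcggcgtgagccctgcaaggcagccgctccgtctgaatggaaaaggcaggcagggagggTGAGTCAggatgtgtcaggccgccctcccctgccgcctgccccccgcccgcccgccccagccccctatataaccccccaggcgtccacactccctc
IL6: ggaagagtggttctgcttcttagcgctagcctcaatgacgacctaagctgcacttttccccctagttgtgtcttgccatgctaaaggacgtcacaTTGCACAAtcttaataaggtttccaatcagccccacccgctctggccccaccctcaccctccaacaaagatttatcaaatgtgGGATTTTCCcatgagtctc

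Motifs were searched on both strands in the 250 bases upstream of each start, and 8 of the 10 genes had at least 1 window, 12 windows in all. LIF and CLCF1 had no entry. The AP-1 match in IL11 lay 96 to 90 bases upstream of the start, and 6.57% of all 35116 windows of that length held this motif. In IL6 the NF-kB match lay 72 to 64 bases upstream, and 1.45% of all windows held that motif. The C/EBP match in IL6 lay 155 to 148 bases upstream, and 9.05% of all windows held it, among them 1 window each of LIFR and OSMR. The OSMR match lay in an annotated exon of OSMR. The STAT motif (TTCNNNGAA), found in 6.57% of all windows, matched in 2 of the 3 LIFR windows and in no other member's. The SOCS3 windows lie upstream of starts at 78359667 and 78360925. Neither covers the bases just upstream of the annotated 5′ end of SOCS3 at 78360077, so those bases were not searched. The CRE motif (TGACGTCA), found in 1.65%, matched in no member's window. No 2 of these motifs overlapped in a member's window. A match is a run of letters and does not show that a factor binds there.

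The 3′ ends of the ligand transcripts carry AU-rich elements, repeats of ATTTA through which RNA-binding proteins such as ZFP36 are known to limit cytokine mRNA. For each gene the 30-base stretch of the 3′ UTR with the most ATTTA was taken from 1 coding transcript in GENCODE release 29 (GRCh38), and those of 3 ligands are shown to compare the density of the element. Capitals mark ATTTA. The stretches are chr19:55365951-55365980 (minus strand) for IL11, chr7:22731697-22731726 (plus strand) for IL6 and chr22:30240522-30240551 (minus strand) for LIF.
IL11: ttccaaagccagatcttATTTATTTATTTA
IL6: ttttaattatttttaATTTAttaatATTTA
LIF: ATTTAttcaatgtcatATTTAaaatATTTA

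The IL6 3′ UTR held 6 ATTTA in 429 bases, a density of 13.99 per 1000 bases that exceeded 99.5% of 11028 genes. The IL11 3′ UTR held 9 in 1618 bases, or 5.56 per 1000 bases, above 92.9% of genes. IL11 also held 6 overlapping or separate copies of the longer TTATTTATT, which 8.78% of genes held at all. LIF, CLCF1 and OSMR held 2 copies each and LIFR 1, whereas IL6, IL6R, IL11RA, IL6ST and SOCS3 held 0. By density of ATTTA, LIF (2.18 per 1000 bases), CLCF1 (4.13) and SOCS3 (2.44) lay above the median gene at 1.64. So did the receptor chains LIFR (4.37), IL6ST (3.84) and OSMR (3.64), each above LIF. IL6R (1.47) lay below that median, and IL11RA had no ATTTA in 394 bases. Both IL6 and IL11 thus carried ATTTA.

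Between media the family split into 2 genes higher, 2 lower and 6 neither. A gene was called when it reached 1 CPM in either library, differed at least 2-fold in scaled counts, and had an exact 95% interval that excluded equality. Intervals in parentheses cover counting error only and treat each read as independent. Reads lacking molecular identifiers cannot be taken as independent molecules, so these intervals may be too narrow. By that rule 9.86% of 13632 genes were higher in special medium, 6.77% were lower and 16.6% were called in either direction. The calls in every gene list below are to be read against these shares. IL6 and SOCS3 were the higher members, and IL11 and IL6R the lower. The nearest member outside the rule was OSMR at 1.81-fold, and the nearest inside was SOCS3 at 2.42-fold. The median log2 ratio of the 10 members was 0.58, against −0.00042 for all genes at the filter.

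**Figure D1:**
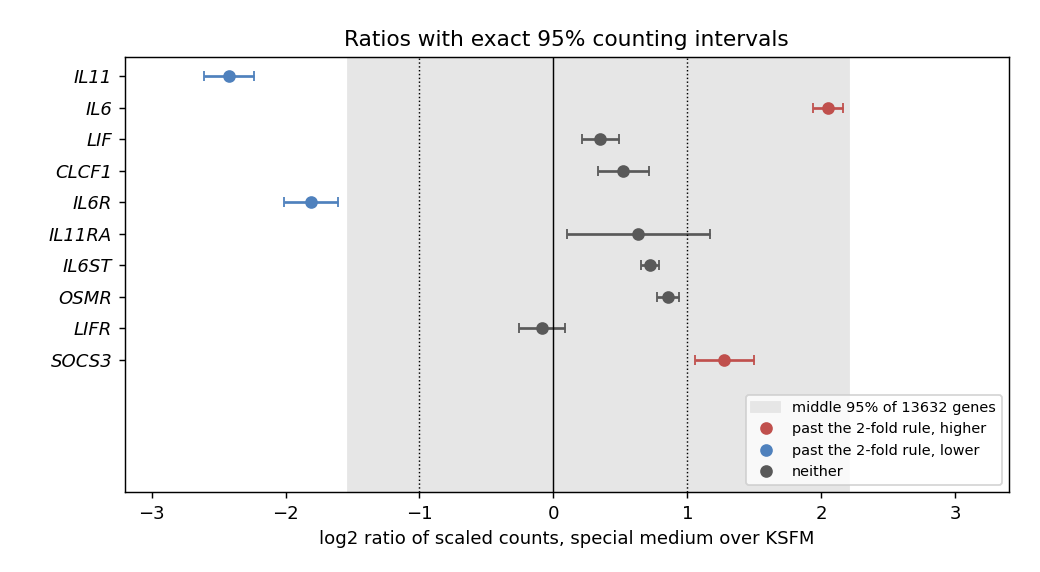
Log2 ratio of scaled counts (special medium over KSFM) for the 10 genes with exact 95% counting intervals, on a band holding the middle 95% of 13632 genes and dotted lines at 2-fold. IL11 and IL6R lie below the band, IL6 and SOCS3 lie above 2-fold within it, and the interval of LIFR spans 0.

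Among the ligands, IL6, the founding cytokine of the family, had 2902 counts and 333 TPM in special medium, against 894 counts and 69.9 TPM in KSFM. The special medium level was 4.14-fold higher (3.84 to 4.47) on counts and 4.76-fold on TPM. Its ratio exceeded that of 97.1% of genes, and its special medium level exceeded the TPM of 96.9% of genes. IL6 was the only member past 4-fold upward.

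IL11, a cytokine known for roles in epithelial and stromal injury responses, went the other way. It had 275 counts and 14.8 TPM in special medium, against 1880 counts and 70.3 TPM in KSFM, and was 5.36-fold lower in special medium (4.72 to 6.11). On TPM it was 4.76-fold lower. Only 0.631% of genes had a lower ratio. By the same rule the unrelated cytokine gene IL24 was also lower, with 301 counts in special medium and 3907 in KSFM.

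LIF, leukaemia inhibitory factor, had 856 counts in each library, which is 27.0 TPM in special medium and 18.9 TPM in KSFM. Its scaled ratio was 1.28-fold (1.16 to 1.40) and it was not called. CLCF1, a ligand of the CNTF receptor complex, had 471 counts and 33.5 TPM in special medium, against 418 counts and 20.6 TPM in KSFM, a ratio of 1.44-fold (1.26 to 1.64) that was not called either. Both ratios exclude equality by counting error but lie under 2-fold, and spread between cultures is not known. CLCF1 shares 61 exonic bases on the same strand with AP003419.1, for which no counts are given.

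Because the ratio of 2 genes within 1 library does not depend on how libraries are scaled, members were also compared in 14 pairs, chosen after their values were seen. By TPM there was 22.5 times as much IL6 as IL11 mRNA in special medium, against 0.995 times in KSFM. The ratio of IL6 to IL11 counts was 22.2 times higher in special medium (19.1 to 25.8, exact conditional interval). IL6 over LIF was 12.3 by TPM in special medium and 3.69 in KSFM, and IL11 over LIF was 0.547 in special medium and 3.71 in KSFM. In other words, IL11 was below LIF in special medium and above it in KSFM.

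**Figure D2:**
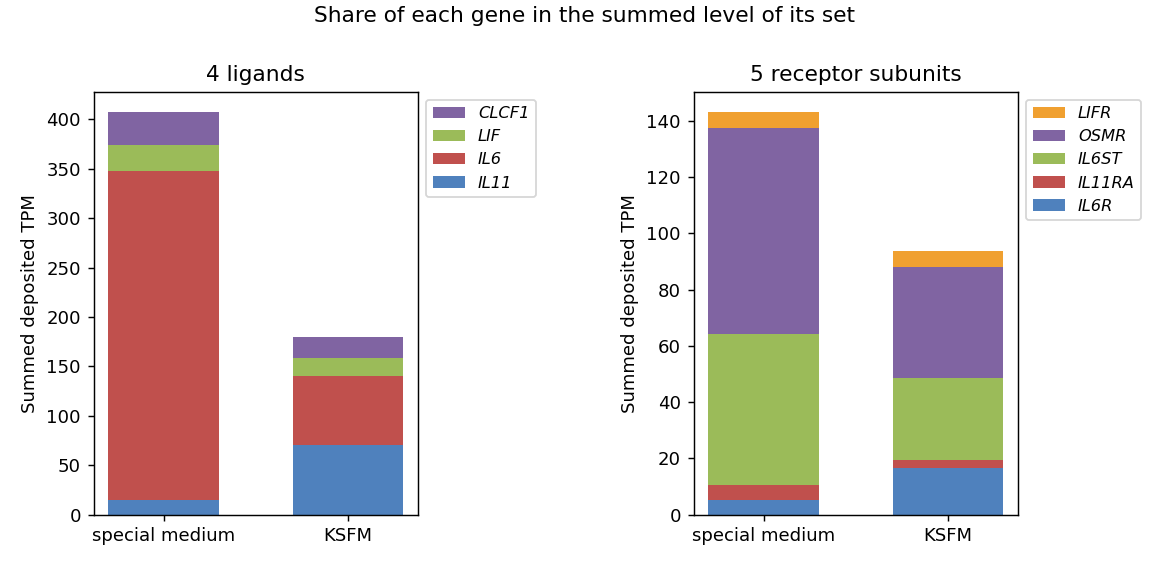
Summed deposited TPM of the 4 ligands and of the 5 receptor subunits in each medium, stacked by gene. IL6 fills 81.6% of the ligand sum in special medium and 38.9% in KSFM, and OSMR with IL6ST make up most of the receptor sum in both.

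The summed level of the 4 ligands was 408 TPM in special medium and 180 TPM in KSFM. IL6 made up 81.6% of it in special medium and 38.9% in KSFM. IL11 made up 3.62% in special medium and 39.1% in KSFM. LIF made up 6.62% in special medium and 10.5% in KSFM, and CLCF1 8.21% in special medium and 11.4% in KSFM. IL6 and IL11 were thus at nearly equal levels in KSFM, where their counting intervals overlapped, and far apart in special medium.

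The other ligands of the family were scarce. OSM and IL31, the ligands of receptors that contain OSMR, had 0 counts in both libraries. IL27 had 1 count in special medium and 0 in KSFM, and EBI3, a subunit of IL-27, had 4 in special medium and 1 in KSFM, too few to show a difference. CNTF had 30 counts in special medium and 67 in KSFM, and CTF1, the cardiotrophin gene, had 39 in special medium and 86 in KSFM. Their ratios of 0.571 (0.358 to 0.891) and 0.578 (0.386 to 0.854) lay short of 2-fold. IL12A, whose product can pair with EBI3, had 41 counts in special medium and 42 in KSFM. Of these 7 genes 3 reached the filter, CNTF, CTF1 and IL12A, and 0 were called.

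Among the receptors that bind a single ligand, IL6R was lower in the medium where IL6 was higher. IL6R had 250 counts and 5.37 TPM in special medium, against 1115 counts and 16.6 TPM in KSFM, a 3.497-fold lower level (3.05 to 4.03) with only 1.61% of genes at a lower ratio. On TPM it was 3.08-fold lower. Counts by gene do not tell the membrane form from transcripts for a soluble receptor.

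IL11RA had 68 counts and 5.16 TPM in special medium, against 56 counts and 2.93 TPM in KSFM. The ratio of 1.55-fold (1.07 to 2.25) was not called, and it rests on the fewest counts of the family. IL11RA shares 334 exonic bases with GALT on the same strand, and GALT had 440 counts in special medium and 842 in KSFM. On that strand IL11RA also shares 410 exonic bases with AL162231.3, for which no counts are given. Reads may have been split between these genes with error.

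The ratios of IL6 to IL6R and of IL11 to IL11RA differed between media in opposite directions. The ratio of IL6 to IL6R by TPM was 61.9 in special medium and 4.22 in KSFM, 14.5 times higher on counts (12.4 to 16.99). The ratio of IL11 to IL11RA by TPM was 2.86 in special medium and 24.0 in KSFM, 8.29 times lower on counts (5.60 to 12.3). LIF over LIFR by TPM was 4.68 in special medium and 3.49 in KSFM, 1.35 times higher on counts (1.16 to 1.58). IL6R and IL11RA were at similar levels in special medium, where their counting intervals overlapped, and IL6R was 5.65 times IL11RA by TPM in KSFM. These are ratios of mRNA and say nothing of protein.

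The signalling receptor chains IL6ST, OSMR and LIFR all lay short of 2-fold. IL6ST, the shared gp130 chain, had 3981 counts and 53.8 TPM in special medium, against 3075 counts and 29.3 TPM in KSFM, a ratio of 1.65-fold (1.57 to 1.73). OSMR, the oncostatin M receptor chain, had 2854 counts and 73.1 TPM in special medium, against 2014 counts and 39.4 TPM in KSFM, a ratio of 1.81-fold (1.71 to 1.91). LIFR, the LIF receptor chain, had 477 counts and 5.77 TPM in special medium, against 646 counts and 5.42 TPM in KSFM. Its ratio of 0.942 (0.835 to 1.06) spans equality on counts, and on TPM the ratio is 1.06, so no direction is given for it. None of the 3 was called.

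By TPM, OSMR was 1.36 times IL6ST in special medium and 1.34 times in KSFM, and the ratio of OSMR to IL6ST counts in special medium was 1.09 times that in KSFM (1.02 to 1.18). LIFR was 0.107 times IL6ST in special medium and 0.185 times in KSFM, and the ratio of LIFR to IL6ST counts in special medium was 0.570 of that in KSFM (0.501 to 0.649). IL6R was 0.0999 times IL6ST in special medium and 0.565 times in KSFM. Over the 5 receptor subunits the summed level was 143 TPM in special medium and 93.5 TPM in KSFM. OSMR made up 51.1% of the receptor sum in special medium and 42.1% in KSFM, and IL6R 3.75% in special medium and 17.7% in KSFM.

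Counts per TPM reflect the effective transcript length the authors' quantification used. For the members other than OSMR the quotient of counts per TPM between libraries ran from 0.682 in IL6 to 0.705 in IL6ST, near the median of 0.698 over all genes. For OSMR it was 0.763, outside the middle 95% of genes (0.651 to 0.752), so its count ratio and TPM ratio are less alike in meaning than those of the other members. OSMR also shares 229 exonic bases with RICTOR on the opposite strand, at 994 counts in special medium and 941 in KSFM. The cause of the shift was not tested.

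Of the remaining receptors of the family, IL27RA, which pairs with gp130 for IL-27, had 629 counts and 29.99 TPM in special medium, against 481 counts and 15.99 TPM in KSFM (1.67-fold, 1.48 to 1.88). IL31RA, which pairs with OSMR for IL-31, had 12 counts in special medium and 39 in KSFM and was 2.55-fold lower (1.31 to 5.35). It reached the filter only through KSFM. CNTFR, the third chain of the receptor for CNTF and CLCF1, had 0 counts in both. The limit used here for a count of 0 is 3 counts per library.

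**Figure D3:**
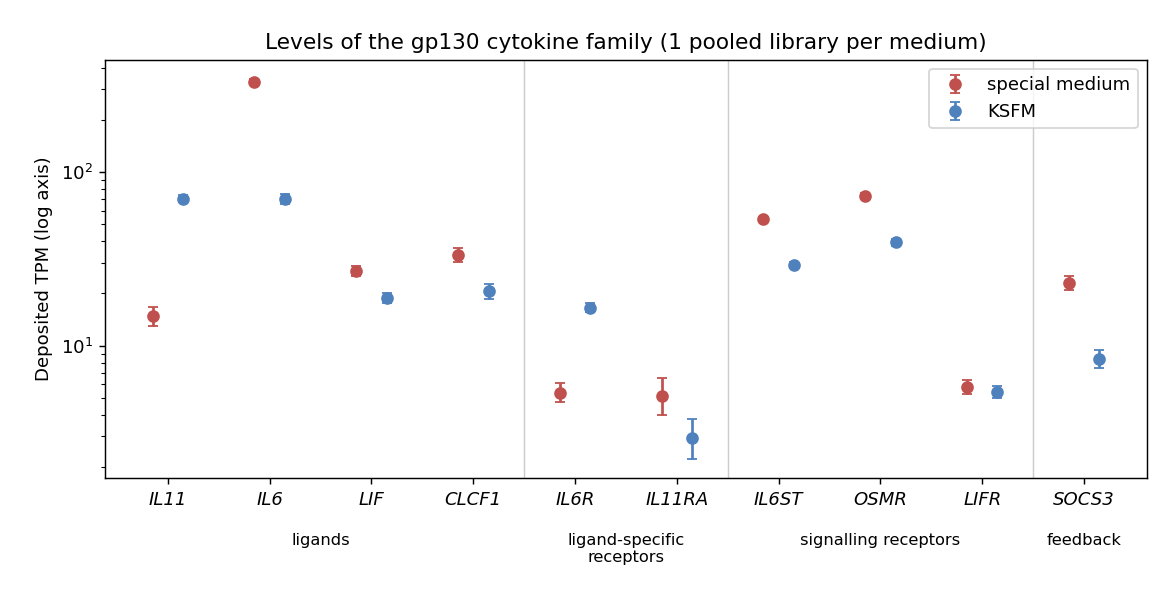
Deposited TPM of the 10 genes on a log axis, special medium left of KSFM for each gene, with exact 95% Poisson counting intervals. IL6 reaches 333 TPM in special medium against 69.9 TPM in KSFM, IL11 and IL6R are lower in special medium, and IL11RA, LIFR and IL6R share the lowest levels there.

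Ordered by TPM, special medium ran IL6, OSMR, IL6ST, CLCF1, LIF, SOCS3, IL11, LIFR, IL6R and IL11RA, and counting intervals overlapped between LIFR and IL6R and between IL6R and IL11RA. KSFM ran IL11, IL6, OSMR, IL6ST, CLCF1, LIF, IL6R, SOCS3, LIFR and IL11RA, and intervals overlapped between IL11 and IL6 and between CLCF1 and LIF. IL11 thus ranked 7 of 10 in special medium and 1 of 10 in KSFM. OSMR, IL6ST, CLCF1 and LIF stood in the same order in both media. By these intervals other neighbours in each order were apart, by counting error alone.

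SOCS3, the feedback inhibitor induced by STAT3, had 496 counts and 22.9 TPM in special medium, against 261 counts and 8.42 TPM in KSFM. It was 2.42-fold higher (2.08 to 2.83) on counts and 2.72-fold on TPM, and its ratio exceeded that of 93.3% of genes. SOCS3 over IL6 by TPM was 0.0690 in special medium and 0.120 in KSFM, and SOCS3 over IL6ST was 0.427 in special medium and 0.288 in KSFM.

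The other 7 genes of the SOCS family were measured for comparison, and of the 6 at the filter none was called in either direction, with a median log2 ratio of −0.058. SOCS2 (0.991-fold, 0.890 to 1.10), SOCS4 (0.952-fold), SOCS5 (0.968-fold) and SOCS6 (1.17-fold) lay near equality. SOCS7 lay at 0.576-fold (0.527 to 0.630) and CISH, a STAT5-induced member, at 0.752-fold (0.429 to 1.29). SOCS1, an inhibitor induced by interferon, had 15 counts in special medium and 16 in KSFM, below the filter. Among 11 other negative regulators, phosphatases, PIAS proteins and the like, 10 reached the filter and 0 were called, with the phosphatase gene PTPN1 (127 TPM in special medium and 103 TPM in KSFM) and PTPN11 (105 TPM in special medium and 123 TPM in KSFM) the most abundant.

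Downstream of the receptors, the kinase and transcription factor genes of the pathway were present in both media. JAK1, the main kinase at gp130, was at 75.9 TPM in special medium and 48.1 TPM in KSFM (1.41-fold, 1.34 to 1.49), JAK2 at 1.31-fold, JAK3 at 1.63-fold and TYK2 at 0.750-fold. STAT3, the main factor activated by gp130, was at 56.0 TPM in special medium and 28.0 TPM in KSFM (1.79-fold, 1.67 to 1.91). STAT2 lay at 1.32-fold and STAT5B at 0.805-fold, and STAT5A had 3 counts in special medium and 0 in KSFM. Of the 9 JAK and STAT genes examined at the filter, where 9.86% of all genes were called higher, 2 were called higher and 0 lower. They were STAT6, the factor of IL-4 and IL-13 signals, at 3.68-fold (3.398 to 3.99), and STAT4, of IL-12 signals, at 3.36-fold (2.29 to 5.01). Over these genes the log2 ratio had a median of 0.50.

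**Figure D4:**
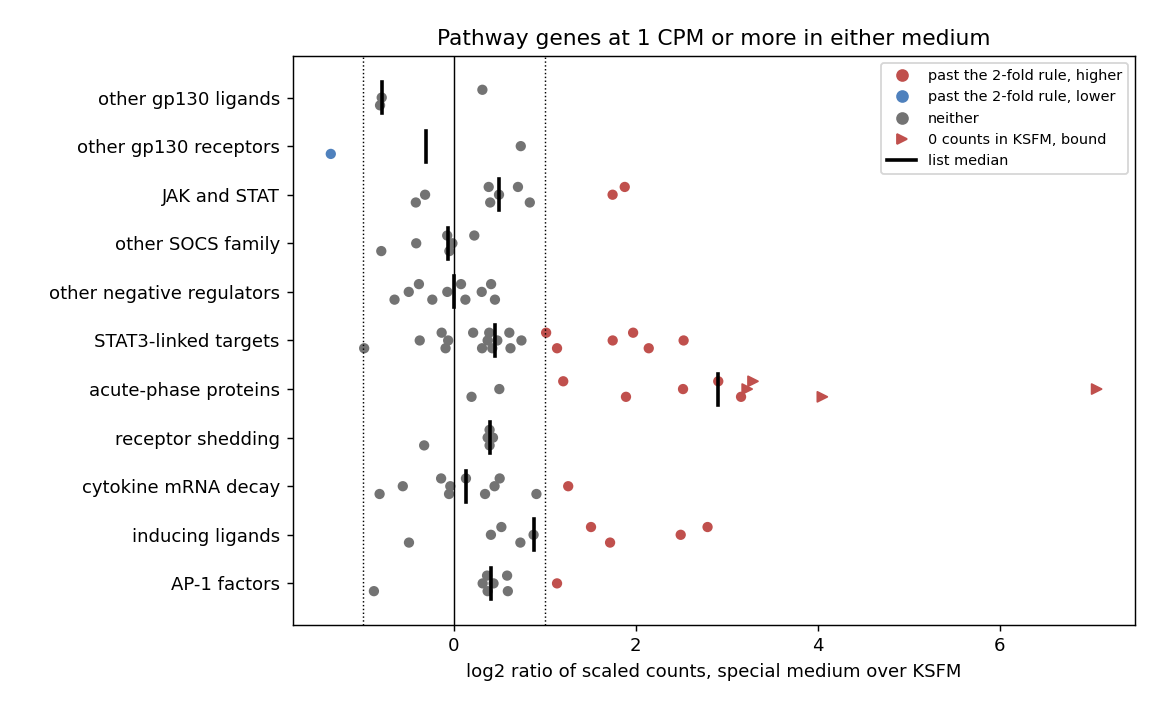
Log2 ratio of scaled counts (special medium over KSFM) for pathway genes at 1 CPM or more in either medium, one row per list. List medians are bars, and genes with 0 KSFM counts are triangles, with KSFM set to 3 counts. Of the 11 acute-phase genes 9 lie past 2-fold upward, whereas the other SOCS genes and other negative regulators lie between the dotted lines. HP, FGA, ORM1, ORM2 and SAA2 passed the filter only through special medium.

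Genes known as targets of STAT3 in other cells were partly higher. Of 20 such genes, all at the filter, 6 were called higher and 0 lower, with a median log2 ratio of 0.45. The share called higher over all genes was 9.86%. The transcription factor gene IRF1 was 5.76-fold (5.24 to 6.35), the adhesion gene ICAM1 4.42-fold (3.86 to 5.07), BCL6 3.92-fold (2.85 to 5.47) and BCL3 3.36-fold (2.74 to 4.14) higher, and the other two were JUNB and TIMP1. IRF1 and ICAM1 are also known targets of interferon and NF-kB signals. CEBPB, at 88.6 TPM in special medium and 155 TPM in KSFM, lay at a log2 ratio of −0.98, just short of 2-fold downward, and MYC was near equality at −0.060.

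Acute-phase genes, which IL-6 induces in liver together with IL-1, stood higher in special medium. Of 17 listed, 11 reached the filter, 9 were called higher and 0 lower, against 9.86% higher over all genes at the filter. The median log2 ratio was 2.91 with a count of 0 set to 3 counts. HP, FGA, ORM1, ORM2 and SAA2 reached the filter only through special medium, which favours their being called higher. Below the filter, A2M had 4 counts in special medium and 17 in KSFM, FGB 16 and 1, FGG 10 and 1, and LBP 2 and 3. HP had 315 counts in special medium and 0 in KSFM, 134-fold higher against a floor of 3 counts per library (at least 108). ORM1 had 39 counts in special medium and 0 in KSFM, 16.6-fold higher on the same basis (at least 12.9). FGA had 23 in special medium and 0 in KSFM, 9.78-fold higher (at least 7.33). SAA2, with 98 counts in special medium and 14 in KSFM, and ORM2, with 22 in special medium and 0 in KSFM, have near-identical neighbours (SAA1 and ORM1), so the split of their reads is uncertain. SERPINA3 (1.42-fold) and SERPINA1 (1.15-fold) were measured and not called, and CRP and HAMP had 0 counts in both.

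Genes of receptor shedding and of cytokine mRNA decay lay mostly under 2-fold. Of 5 genes of receptor shedding, one of the routes by which soluble IL6R arises, 0 were called, with the protease ADAM17 at 60.3 TPM in special medium and 67.3 TPM in KSFM and ADAM10 at 57.7 TPM in special medium and 39.9 TPM in KSFM. Of 11 genes of cytokine mRNA decay 1 was called, ZC3H12A, encoding Regnase-1, an endonuclease known to cleave IL6 mRNA. It was at 31.9 TPM in special medium and 11.9 TPM in KSFM, 2.39-fold higher (2.10 to 2.73). The other 10 decay genes lay at log2 ratios between -0.81 (RC3H2, which encodes Roquin-2) and 0.91 (ZFP36), and the list had a median of 0.14.

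Of 11 ligands known to induce IL6 or IL11 in epithelium or fibroblasts, 9 reached the filter, and 4 were called higher and 0 lower. Over all genes at the filter the share called higher was 9.86%. IL1B was 6.92-fold (5.83 to 8.25), TGFB2 5.64-fold (4.64 to 6.90), IL1A 3.29-fold (2.96 to 3.66) and EREG 2.85-fold (2.71 to 2.997) higher. TGFB1 was at 29.4 TPM in special medium and 19.7 TPM in KSFM, with a log2 ratio of 0.41. TNF had 10 counts in special medium and 0 in KSFM and did not reach the filter. Of 9 AP-1 genes 8 reached the filter and JUNB alone was called (2.20-fold, 2.07 to 2.34), while the other 7 lay at log2 ratios between -0.88 (JUND) and 0.60 (FOSL2).

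On TPM with a pseudocount of 1 the calls over all genes were 1265 higher and 349 lower, 78.4% higher, against 1344 higher and 923 lower, or 59.3% higher, on counts. The median log2 ratio of all genes on that TPM scale was 0.15, so TPM ratios are to be read against that shift. The 4 called members had the same calls on both scales.

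On GRCh38 in GENCODE release 29, IL11 (ENSG00000095752) spans chromosome 19 from 55364389 to 55370463 on the minus strand and IL6 (ENSG00000136244) chromosome 7 from 22725884 to 22732002 on the plus strand. IL6R (ENSG00000160712) lies on chromosome 1 from 154405193 to 154469450 and SOCS3 (ENSG00000184557) on chromosome 17 from 78356778 to 78360077. LIFR (ENSG00000113594, from 38474963 to 38608354), OSMR (ENSG00000145623, from 38845858 to 38945596) and IL6ST (ENSG00000134352, from 55935095 to 55994993) all lie on chromosome 5, with LIFR and OSMR close to each other. Antisense genes overlap exons of IL6 (428 bases), IL6ST (797 bases), LIF (92 and 175 bases) and LIFR (629 bases). Of these LIFR-AS1 is in the tables, at 21 counts in special medium and 4 in KSFM. The kit is stranded but the strand setting of the counting is not given in the sources used here, so reads of overlapping genes may not be told apart.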

How the data were processed

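Poly(A) RNA of 2 pooled libraries, 1 per medium, was measured. Per the submitters' processing notes, which give no order, the tools were HISAT2 2.1.0, RSEM, fastp 0.20.0 and FastQC 0.11.9, on GRCh38. The annotation, the strand setting and the RSEM version were not given in the sources used here. Per gene, the authors deposited estimated counts, fractional in 8.05% of genes in special medium and 11.3% in KSFM, and TPM values, which the authors scaled to 1 total per library.

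Counts were rounded and scaled by edgeR 4.0.16 TMM factors (R 4.3.3). Each ratio of special medium over KSFM has an exact 95% interval (Clopper-Pearson, given the summed count). For a ratio against 0 counts, 3 counts were used. Intervals of pairs of members are exact conditional odds ratio intervals. The ratio rule was tried on simulated Poisson counts. These hold no spread between cultures, so the simulation cannot show how the calls stand against that spread. Depth limits small counts most: IL11RA, with 68 counts in special medium and 56 in KSFM, has an interval from 0.099 to 1.17 on the log2 scale, and IL6ST, with 3981 in special medium and 3075 in KSFM, one from 0.66 to 0.79. On TPM the fold was taken from TPM and the interval from counts.

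The members and lists were chosen with earlier results of these data known. Named are all members, all other gp130 ligands and receptors, JAK, STAT and SOCS genes, and in each other pathway list the called genes with the largest ratios, at most 4, or the 2 with the highest TPM where none was called. Other names (CEBPB, MYC, JUNB, TIMP1, SAA2, SERPINA1, SERPINA3, CRP, HAMP, ZFP36, RC3H2, JUND, FOSL2, TGFB1, TNF, IL4R, TSLP, IL18, GALT, RICTOR), and the names from the marker lists of cell types, were chosen after their values were seen. A2M, FGB, FGG and LBP were also named after their values were seen. A few genes covered by this naming rule and their lists are not reported here. Alternatives were scaling by total count, by upper quartile and by DESeq2 1.42.0, TPM (pseudocount 1, 0.1, or 1 and centred), filters of 10 CPM and none, a 4-fold rule, and an interval wholly beyond 2-fold. Motif and ATTTA counts left out chromosome 8. Other tools were matplotlib 3.10.9, pandas 2.3.3, scipy 1.17.1 and numpy 2.4.6 in Python 3.11.15.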

Additional observations from a re-analysis of the deposited data

How the results depend on the processing

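IL6 and SOCS3 remained higher and IL11 and IL6R lower under total count, DESeq2 and upper quartile scaling, all TPM settings, both other filters and an interval wholly beyond 2-fold. By a 4-fold rule 1 member was higher (IL6) and 1 lower (IL11). Of 60 member ratios under other scalings and units 50 stayed inside the counting interval, 10 lay outside it and 0 called ratios changed sign. The log2 ratio ranged from −2.44 to −2.18 for IL11, 2.03 to 2.25 for IL6, −1.83 to −1.46 for IL6R, 1.20 to 1.44 for SOCS3 and −0.11 to 0.089 for LIFR. Over all genes, lower calls numbered 349, 605 and 536 on TPM with pseudocounts of 1 and 0.1 and centred, against 923 on counts; higher calls there stayed within 1.5 times of 1344. A filter of 10 CPM left 788 higher and 446 lower, a 4-fold rule 408 and 162, and an interval wholly beyond 2-fold 837 and 395, each a subset by construction. No paired analysis was possible because each medium has 1 pooled library. For the same reason no replicate could be left out, and variation between cultures is unknown at any depth.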

Other observations

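Beyond the gp130 family, other cytokine receptor genes were read from a list of 26 class I and class II receptors, of which 19 reached 1 CPM. Of these 7 were higher in special medium and 1 lower, with a median log2 ratio of 0.71. Over all genes 9.86% were higher and 6.77% lower. IL7R, the receptor chain for IL-7 and TSLP, had 935 counts in special medium and 75 in KSFM, 15.9-fold higher (12.6 to 20.4). IL2RG, the common gamma chain, had 21 counts in special medium and 4 in KSFM (6.70-fold, 2.26 to 26.8), and the prolactin receptor gene PRLR had 36 in special medium and 8 in KSFM (5.74-fold, 2.62 to 14.3). IL2RG and PRLR reached the filter only through special medium. On TPM PRLR was 2.92-fold higher. Its quotient of counts per TPM between libraries, 1.54, lay outside the middle 95% of genes (0.651 to 0.752). IL21R, the IL-21 receptor gene, was the one lower, with 28 counts in special medium and 233 in KSFM (6.52-fold lower, 4.398 to 10.03). IL4R, at 87.4 TPM in special medium and 46.5 TPM in KSFM, was not called.

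Among 14 other cytokine genes 9 reached the filter, 3 higher and 2 lower, with a median log2 ratio of 0.63. The shares over all genes were 9.86% higher and 6.77% lower. IL32 was 4.98-fold higher (3.05 to 8.47). The other 2 were IL7 (17 counts in special medium and 2 in KSFM) and IL16 (17 counts in special medium and 4 in KSFM). IL32, IL7 and IL16 reached the filter only through special medium, IL7 and IL16 at 1.00 CPM there. TSLP, an epithelial cytokine, was 3.21-fold lower (1.58 to 7.20) on 10 counts in special medium and 41 in KSFM. It reached the filter only through KSFM. IL24 was the other lower gene. IL18, the most abundant of the list, was at 438 TPM in special medium and 247 TPM in KSFM and was not called.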
